A study of Mus musculus with 6 samples.

Results

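The genes described here are Atf4 and 9 targets of the integrated stress response, Ddit3, Trib3, Asns, Psat1, Phgdh, Shmt2, Mthfd2, Fgf21 and Gdf15. They were chosen by name from knowledge of the pathway, with earlier results of these data known. They make up 10 of the 54093 genes read by RNA-seq in the right atrium (RA) of young mice. The RNA came from C57BL/6 mice with a WT genotype at P21, with 3 libraries from sham-operated pups and 3 libraries from pups with volume overload (VO). Surgery was done at P7 on pups of either sex, and VO was made by an aortocaval fistula, an opening between the abdominal aorta and the inferior vena cava that sends more blood back to the RA. No label or method says whether a library is 1 animal or a pool, so each p-value measures only the spread between these libraries, and the libraries are called sham 1 to sham 3 and VO 1 to VO 3.

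The integrated stress response starts when 1 of 4 kinases, PERK, GCN2, PKR or HRI, phosphorylates the initiation factor eIF2. General translation slows, while the mRNA of ATF4 is translated more, and ATF4 then turns on genes for amino acid supply, for one-carbon metabolism and for the handling of stress. In heart muscle this programme is best known from mitochondrial disease, in which serine and folate enzymes and the secreted proteins FGF21 and GDF15 are induced. Because ATF4 is set largely at translation, its mRNA level is not a measure of its protein, and neither protein nor eIF2 phosphorylation was measured here.

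Values are FPKM, the number of fragments on a gene divided by its length and by a constant of the library that already scaled the libraries to each other. The libraries held 15963082 to 17237903 fragments on genes. The test was limma's moderated test, two-sided, on log2(FPKM + 0.1) over the 12627 genes with a mean of at least 1 FPKM, so fold changes of low genes are understated. Myl7, an atrial myosin light chain, was at 2586 to 8501 FPKM, and Irx4, a ventricular transcription factor, at no more than 0.259 FPKM. The ventricular light chain Myl2 was unequal, at 20.6 to 60.4 FPKM in sham 1, sham 3 and VO 3 and at 1.54 to 6.95 FPKM in the rest. Irx4 was highest in sham 3 and VO 3, at 0.259 and 0.117 FPKM, but not raised in sham 1. The ventricular markers Myh7 and Hey2 did not share the split. Myh7 was at 10.7, 12.4 and 12.4 FPKM in sham and at 5.58, 10.1 and 7.21 FPKM in VO, and Hey2 was lowest in VO 3, at 1.34 FPKM. The part of Myl2 in the results was not tested. Of the 8 atrial cardiomyocyte markers, 8 were lower in VO and 4 had an unadjusted p under 0.05, and their summed level was 19537 to 25590 FPKM in sham and 9067 to 16874 FPKM in VO. VO 3 and VO 1 each stood apart. The summed adipocyte markers were at 392 FPKM in VO 3 and at 3.50 to 7.72 FPKM in the others, with the brown fat gene Ucp1 listed at 0 in the other 5 libraries and at 254 FPKM in VO 3, and the summed Schwann cell markers were at 41.7 FPKM in VO 3 and at 4.89 to 5.88 FPKM elsewhere. In VO 1 the summed macrophage markers reached 865 FPKM against 240.3 to 341 FPKM elsewhere, and the summed cycling cell markers 15.1 FPKM against 2.68 to 3.72 FPKM. Xist was read in sham 1, sham 3, VO 1 and VO 2 and the Y-linked gene Ddx3y in sham 2 and VO 3.

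At the RNA level the response was not higher as a whole in VO. Atf4, Ddit3 and Mthfd2 were lower in VO without overlap between the groups, while Psat1, Phgdh, Asns, Trib3 and Shmt2 overlapped between the groups. The fold changes of Phgdh and Asns hung on VO 3, and those of Trib3 and Shmt2 on other single libraries. Psat1 stayed higher in VO with any library left out, at log2 fold changes of 0.29 to 0.65, each with an unadjusted p over 0.05. Fgf21 was not detected. None of the 8 members tested passed an adjusted p of 0.05, a threshold that 0.00792% of all tested genes passed. The study, with DESeq2 on counts, reported far more genes at that threshold. At an unadjusted p under 0.05 there were 3 members, all lower in VO, where 8.08% of all tested genes were lower and 3.89% higher at that threshold. With TPM, another scaling by library, Psat1 alone passed that threshold, higher in VO, and over all tested genes 1085 were higher and 486 lower against 491 and 1020 with FPKM. On the FPKM scale the same 3 members had no overlap between groups, against 12.9% of all tested genes lower and 8.25% higher without overlap. The median log2 fold change of the 8 members was -0.17, and that of all tested genes -0.01, with 6503 of 12627 lower.

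**Figure D1:**
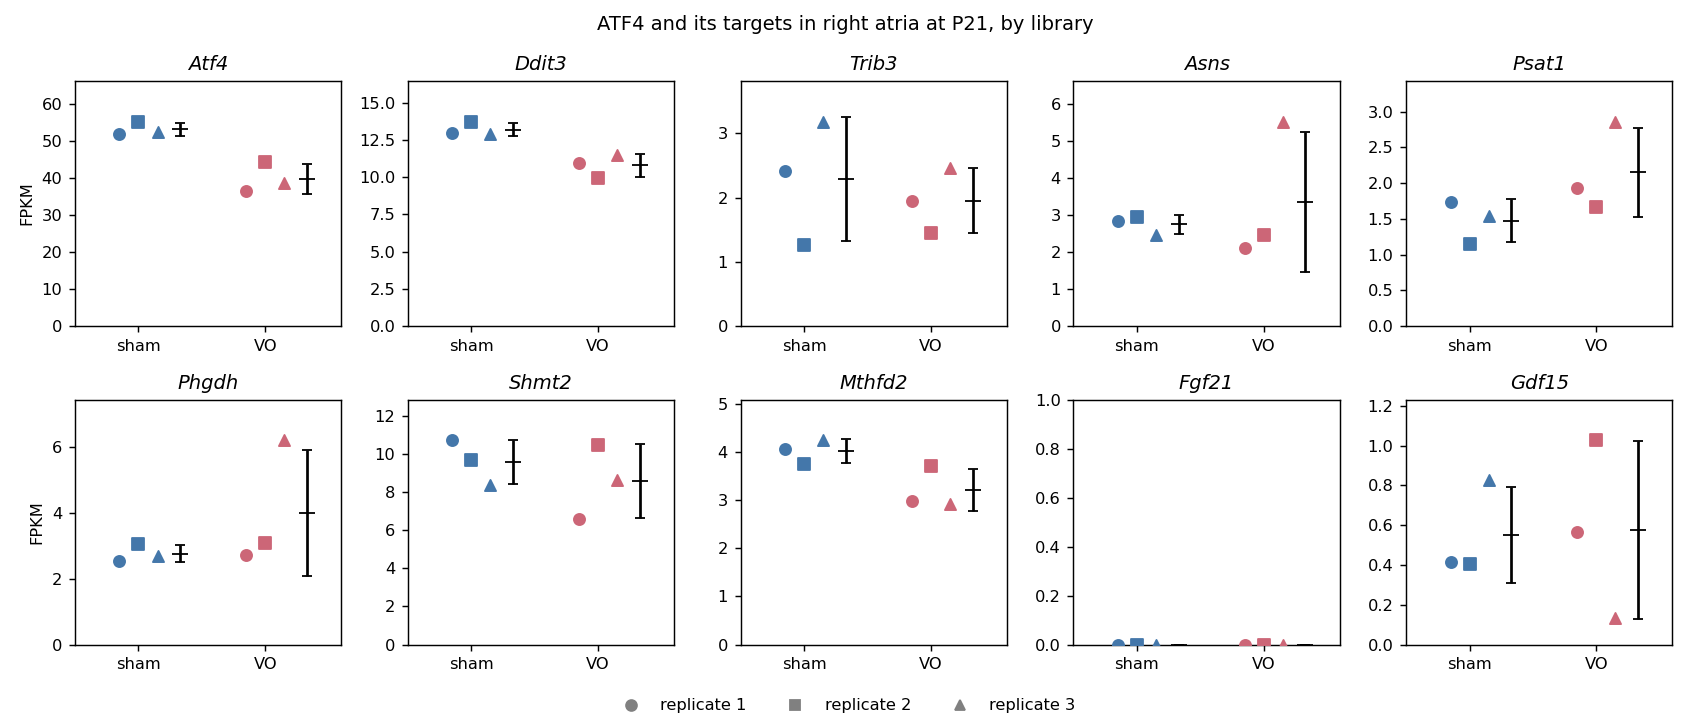
FPKM of each of the 10 genes (vertical axes, each from 0) in the sham and VO libraries, with a marker shape for each replicate number and, beside the points, the mean with the SD of 3 libraries. The VO points lie under all sham points for Atf4, Ddit3 and Mthfd2, and VO 3 stands above the other libraries for Asns, Psat1 and Phgdh.

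The levels spanned a wide range. Within the sham libraries Atf4 was highest at 53.1 ± 1.78 FPKM (SD, n = 3), followed by Ddit3 at 13.2 ± 0.456 FPKM, Shmt2 at 9.58 ± 1.17 FPKM and Mthfd2 at 4.02 ± 0.244 FPKM, and the ranges of these 4 genes did not overlap. Phgdh and Asns followed at means of 2.75 FPKM each, then Trib3 at 2.28 ± 0.969 FPKM and Psat1 at 1.48 ± 0.302 FPKM. Neighbours in this lower part could not be ordered, since the range of Trib3 overlapped with those of Phgdh, Asns and Psat1. Gdf15 was at 0.551 ± 0.241 FPKM, under the filter.

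Among the transcription factors and their partner, Atf4 (ENSMUSG00000042406, GRCm38, chr15:80255184-80257541) is the factor that the pathway is named for. It was at 51.8, 55.1 and 52.3 FPKM in sham 1 to 3 and at 36.5, 44.2 and 38.5 FPKM in VO 1 to 3, from 1492 to 2240 fragments per library. Every VO library lay under every sham library, and the spread within sham was small beside the gap. VO against sham gave a log2 fold change of -0.42 (SE 0.11, 95% limits -0.68 to -0.16, limma's unadjusted p = 0.0065, adjusted p = 0.373), or 0.747 of the sham level. It was -0.40 without VO 3 and -0.36 without VO 1, while with TPM it was -0.28 with overlap and an unadjusted p of 0.0555. The summed atrial cardiomyocyte markers were also lower in every VO library than in every sham library. They ran in the order of Atf4 within VO but not within sham, and their part in the lower Atf4 was not tested. In bulk tissue, fewer cells of a type and less RNA per cell cannot be told apart.

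Ddit3 (ENSMUSG00000025408, chr10:127290774-127296288) encodes CHOP, a factor that ATF4 induces and that can promote cell death under lasting stress. It was at 12.9, 13.7 and 12.9 FPKM in sham and at 10.9, 9.95 and 11.5 FPKM in VO. As for Atf4, the groups did not overlap, with a log2 fold change of -0.29 (SE 0.10, limma's unadjusted p = 0.0231, adjusted p = 0.406). The unadjusted p was over 0.05 when sham 2, sham 3 or VO 2 was left out, and with TPM the log2 fold change was -0.15 with overlap and an unadjusted p of 0.260. Mars, a tRNA synthetase gene on the opposite strand at a mean of 13.7 FPKM, overlaps Ddit3, and the strand setting of the counting is not given in the sources used here, so fragments from the shared stretch cannot be assigned with certainty. Mars was itself lower in VO without overlap, at a log2 fold change of -0.25 (limma's unadjusted p = 0.109). Its part in the level of Ddit3 was not tested. A second entry named Ddit3, of 105 bases, was listed at 0 in every library.

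Trib3 (ENSMUSG00000032715, chr2:152337422-152344032) encodes a pseudokinase that ATF4 and CHOP induce and that restrains them in return. It was at 2.42, 1.26 and 3.18 FPKM in sham and at 1.95, 1.44 and 2.46 FPKM in VO, from 46 to 110 fragments per library. The groups overlapped throughout, with both the highest and the lowest library in sham. Its log2 fold change was -0.16 (SE 0.35, limma's adjusted p = 0.849), and its 95% limits of -0.99 to 0.68 leave room for a sizeable difference either way. It turned positive when sham 3 or VO 2 was left out. With only the libraries in which Xist was read, a fit chosen after seeing the data, it was -0.70 without overlap (limma's unadjusted p = 0.0473, adjusted p = 0.569). In that fit 626 of the 12627 tested genes were lower at an unadjusted p under 0.05.

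The enzyme genes did not move together. Mthfd2 (ENSMUSG00000005667, chr6:83305691-83325908), a mitochondrial folate enzyme that is low in most adult tissues, was at 4.06, 3.76 and 4.24 FPKM in sham and at 2.99, 3.71 and 2.93 FPKM in VO. The groups were only just apart, since VO 2 lay directly under sham 2. On the log2 scale the fold change was -0.32 (SE 0.13, limma's unadjusted p = 0.0475, adjusted p = 0.414), and without VO 3 it was -0.26 with an unadjusted p of 0.142. The unadjusted p was under 0.05 in only 4 of 18 alternatives, and with TPM the log2 fold change was -0.19 with overlap.

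Shmt2 (ENSMUSG00000025403, chr10:127517123-127522444), which turns serine into glycine in mitochondria and feeds the step of Mthfd2, was at 10.7, 9.67 and 8.37 FPKM in sham and at 6.59, 10.5 and 8.64 FPKM in VO. VO 1 was the lowest library and the other VO libraries lay within the sham range. Its log2 fold change was -0.18 (SE 0.18, limma's adjusted p = 0.656), and without VO 1 it was -0.0041. Ndufa4l2 overlaps Shmt2 on the opposite strand at a mean of 17.3 FPKM, with the same limit as for Ddit3.

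Phgdh (ENSMUSG00000053398, chr3:98313170-98339990) encodes the entry enzyme of serine synthesis. It was at 2.53, 3.03 and 2.69 FPKM in sham and at 2.70, 3.08 and 6.19 FPKM in VO. VO 3 was 2.01 times the next library, and VO 1 lay within the sham range. The log2 fold change was 0.43 (SE 0.30, limma's unadjusted p = 0.193, adjusted p = 0.524), and without VO 3 it was 0.071.

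Psat1 (ENSMUSG00000024640, chr19:15904678-15947337), the aminotransferase of the next step, was at 1.74, 1.15 and 1.54 FPKM in sham and at 1.93, 1.67 and 2.86 FPKM in VO. VO 3 was again highest, at 1.48 times the next library, and only VO 2 lay within the sham range. The log2 fold change of 0.50 (SE 0.26, limma's unadjusted p = 0.0943, adjusted p = 0.443) was the largest positive value among the 8 members tested. Without VO 3 it was 0.29 with an unadjusted p of 0.284.

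Asns (ENSMUSG00000029752, chr6:7675169-7693254) makes asparagine and is among the best known targets of ATF4. It was at 2.84, 2.95 and 2.45 FPKM in sham and at 2.10, 2.44 and 5.51 FPKM in VO, where 104 to 248 fragments were counted per library. The means and the single libraries pointed different ways: VO 3 was 1.87 times the next library, while VO 1 and VO 2 lay under all sham libraries, VO 2 only just. The log2 fold change was 0.15 (SE 0.34, limma's adjusted p = 0.848), and without VO 3 it was -0.26 with an unadjusted p of 0.173.

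**Figure D2:**
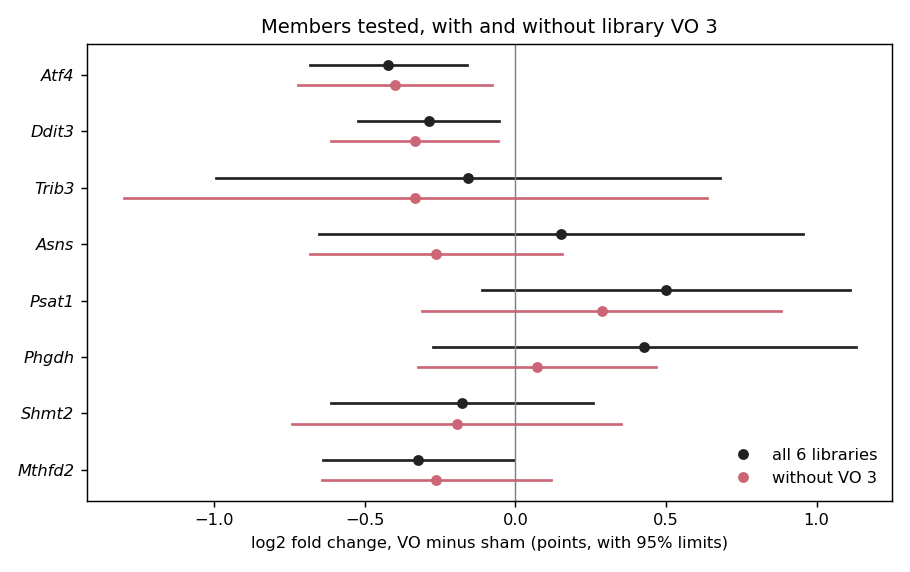
Log2 fold change of VO against sham for the 8 tested genes (horizontal axis, points with 95% limits from limma), with all 6 libraries in black and without VO 3 in red. Without VO 3, Asns moved from 0.15 to -0.26 and Phgdh from 0.43 to 0.071, while Atf4 moved only from -0.42 to -0.40.

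Both secreted members were near or under the limit of detection. Fgf21 (ENSMUSG00000030827, chr7:45613886-45615490), a hormone that stressed liver and muscle release, was listed at 0 in all 6 libraries, where 3 fragments would have been 0.174 to 0.203 FPKM, a limit that covers counting error only. Gdf15 (ENSMUSG00000038508, chr8:70629393-70632456), a stress cytokine that acts on the brainstem, was at 0.416, 0.407 and 0.829 FPKM in sham and at 0.565, 1.03 and 0.131 FPKM in VO, from 4 to 31 fragments. Its VO libraries spanned the whole range of the 6. With a filter of 0.1 FPKM the log2 fold change of Gdf15 was -0.16 (limma's unadjusted p = 0.794, adjusted p = 0.933), and the spread among libraries exceeded counting error, with 31 fragments in VO 2 (95% Poisson limits 21.1 to 44.0) and 4 in VO 3 (1.09 to 10.2).

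The receptors of these hormones were read as well. GDF15 signals through GFRAL with RET, and Gfral was listed at 0 in all 6 libraries. FGF21 needs the co-receptor beta-klotho beside an FGF receptor, and its gene Klb was at 0.0141, 0 and 0.0540 FPKM in sham and at 0.0363, 0.0270 and 1.08 FPKM in VO. Only VO 3 held more than a trace of Klb, and VO 3 was also the one library with Ret above 1 FPKM, at 1.84. Klb is known from fat and Ret from nerve, and VO 3 was the library with the high adipocyte and Schwann cell markers. Their part in these levels was not tested. Fgfr1, Fgfr2 and Fgfr3 passed the filter with log2 fold changes of 0.14, 0.44 and 0.13, and none had an unadjusted p under 0.05. Fgfr2 passed the filter only through VO 1, at 1.59 FPKM against 0.529 to 1.04 FPKM elsewhere, so its value is not read as a difference.

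ATF4 binds with a C/EBP partner to composite elements, for which the letters TGATGNAA serve as a core. These letters were looked for on both strands of the RefSeq promoter windows of GRCm38.p6, from 250 bases before each start to 50 bases after it. They stood in 3.97% of 32851 promoters, or 4.51% of 27025 genes, and in 3 of the 10 members, Asns, Fgf21 and Trib3, all 10 having been matched to a window. A match is a description of letters and not of binding. The stretches with a match are printed because genes that carry the letters differed widely in level here, with the match in capitals and each read 5′ to 3′ along the strand of its gene. The stretches lie at chr6:7693210-7693329 for Asns, chr7:45615566-45615685 for Fgf21 and chr2:152344028-152344057 for Trib3, all on the minus strand.
Asns: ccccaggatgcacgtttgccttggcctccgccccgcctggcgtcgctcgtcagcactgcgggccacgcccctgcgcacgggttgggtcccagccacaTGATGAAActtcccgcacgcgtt
Fgf21: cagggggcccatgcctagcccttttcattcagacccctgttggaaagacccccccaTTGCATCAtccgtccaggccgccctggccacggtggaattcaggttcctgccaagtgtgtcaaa
Trib3: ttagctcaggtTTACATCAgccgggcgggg

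In Asns the match began 23 bases before the start and read along the gene, while in Fgf21 it began 139 bases before the start and in Trib3 at base 15 after it, both on the opposite strand. Fgf21 was not detected in any library, Asns was high in VO 3 alone, and Trib3 overlapped between the groups. Atf4, Ddit3 and Mthfd2, the members lower in VO without overlap, held no match in these windows, which says only that these letters are not there. Among the other genes of the pathway, 5 of 13 matched cytosolic tRNA synthetases held the letters, as did 3 of 13 other stress targets (Chac1, Vldlr and Pck2). So did 3 of 11 transcription factors, 2 of 8 transporters and 1 of 15 serine, glycine, folate and proline enzymes. The letters stood in 1 of 15 genes of the kinases and eIF2 machinery and 1 of 18 of the endoplasmic reticulum list. They stood in none of 9 mitochondrial chaperones and proteases and 0 of 5 receptors.

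The wider pathway was read through 9 lists with 138 genes, of which 122 passed the filter. None of the 122 had an adjusted p under 0.05, while 9 were lower and 2 higher in VO at an unadjusted p under 0.05. As shares of 122 these counts stand beside the 8.08% and 3.89% of all tested genes. The median log2 fold change over the 122 genes was -0.08. Of the 11 genes, Slc38a2, Eif2b4 and Ppp1r15a kept an unadjusted p under 0.05 with each library left out in turn and with TPM, and the others lost it in at least 1 of these fits.

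**Figure D3:**
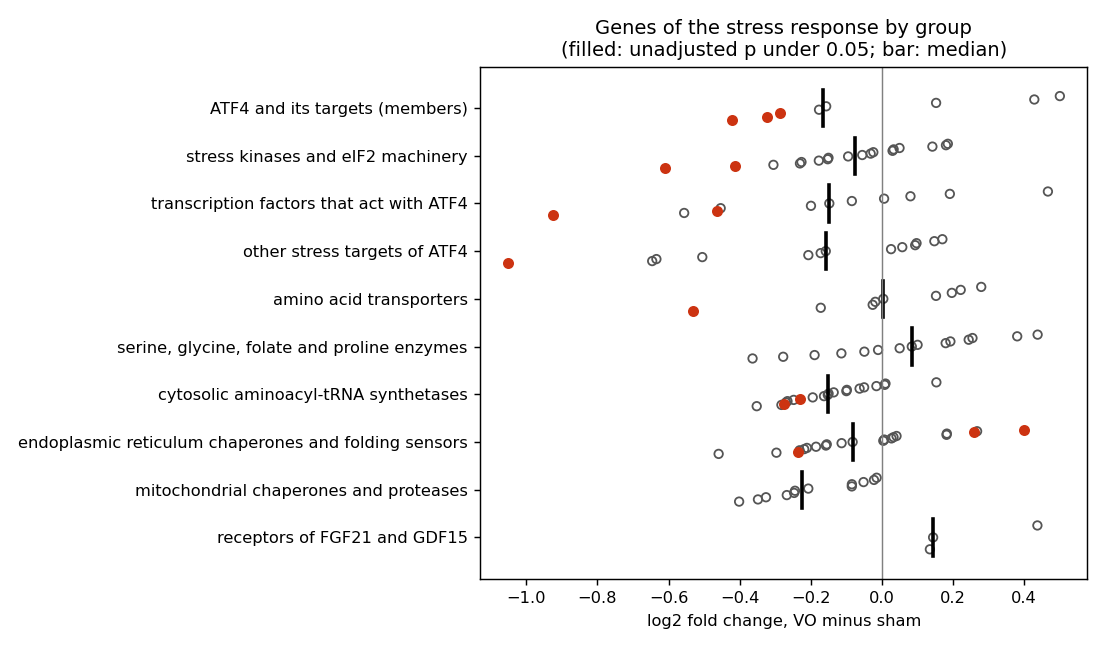
Log2 fold change of VO against sham for each tested gene (points along the horizontal axis, 1 band per list), with filled points for an unadjusted p under 0.05 and a bar at the median of each list. The filled points lie mostly left of 0, with Ddit4 at -1.05 and Cebpd at -0.93 the farthest out, and the mitochondrial list lies wholly left of 0.

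Upstream of ATF4, the kinases that start the response gave no separation of the groups. The log2 fold changes of Eif2ak1, Eif2ak2, Eif2ak3 and Eif2ak4, which encode HRI, PKR, PERK and GCN2, ran from 0.033 to 0.18 with overlap in each. Among all 18 genes of the kinases and the eIF2 machinery, 12 were lower and 6 higher, with 2 of the lower ones at an unadjusted p under 0.05. Eif2b4, a subunit of the exchange factor that phosphorylated eIF2 blocks, was at 15.2, 13.5 and 12.9 FPKM in sham and at 10.3, 9.98 and 10.9 FPKM in VO, a log2 fold change of -0.41 (limma's adjusted p = 0.364). Ppp1r15a encodes GADD34, the stress-induced subunit that directs dephosphorylation of eIF2, and it was at 12.4, 9.60 and 10.9 FPKM in sham and at 5.85, 8.44 and 7.25 FPKM in VO. Both genes lay lower in every VO library, Ppp1r15a with a log2 fold change of -0.61 (limma's adjusted p = 0.373). The constitutive counterpart Ppp1r15b was instead higher without overlap, at a log2 fold change of 0.19 (limma's unadjusted p = 0.0851), and Dele1, which relays mitochondrial stress to HRI, was at -0.31 with an unadjusted p of 0.0720.

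Of the 11 tested transcription factors that act with ATF4, 7 were lower and 4 higher. Cebpd, a C/EBP factor that inflammation and glucocorticoids induce, was at 22.4, 14.2 and 12.0 FPKM in sham and at 5.52, 11.0 and 9.01 FPKM in VO. The groups did not overlap, and VO 1 was lowest, with a log2 fold change of -0.93 (limma's unadjusted p = 0.0203, adjusted p = 0.404). Jund, an AP-1 subunit, was at -0.46 with the same adjusted p, while Cebpb at -0.45 and Jdp2 at -0.20 did not reach an unadjusted p of 0.05. Among 13 tested stress targets 7 were lower and 6 higher. Ddit4, an inhibitor of mTORC1 that hypoxia and glucocorticoids also induce, was at 44.8, 37.0 and 30.2 FPKM in sham and at 9.45, 26.2 and 22.4 FPKM in VO. Its log2 fold change of -1.05 (limma's unadjusted p = 0.0257, adjusted p = 0.406) was the most negative of the 122 genes, and without VO 1 it was -0.60. The glutathione-degrading enzyme Chac1 was at -0.65, the hormone gene Stc2 at -0.63 and the translation repressor Eif4ebp1 at -0.51, all with an unadjusted p over 0.05.

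The genes that bring amino acids into the cell or make them had members in both directions. Slc38a2, the neutral amino acid transporter SNAT2, was at 48.9, 55.8 and 64.5 FPKM in sham and at 39.1, 37.1 and 40.0 FPKM in VO. It had the smallest adjusted p of the 122 genes, 0.344 by limma, at a log2 fold change of -0.53 and without overlap. The other 3 transporters with the smallest p, Slc3a2 at -0.17, Slc1a4 at 0.28 and Slc7a5 at 0.20, all had an unadjusted p over 0.05. In total 5 of 9 tested transporters were higher and 4 lower. In the list of serine, glycine, folate and proline enzymes, 9 of 15 tested genes were higher and none had an unadjusted p under 0.05. Among the higher ones, Shmt1, Mthfd1l and Tyms had sham means of 0.869, 0.994 and 0.989 FPKM and passed the filter only through VO. The count of higher genes is therefore not read as a direction of the list. Those with the smallest p were Aldh1l2 at a log2 fold change of -0.28 and Mthfd1 at -0.36, both folate enzymes, and Shmt1, the cytosolic counterpart of Shmt2, at 0.44 and the mitochondrial serine carrier Sfxn1 at 0.38. Without VO 3, Shmt1 was at 0.19 and Sfxn1 at 0.04, and Shmt1 passed the filter only through VO 3.

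Cytosolic tRNA synthetases, of which several are known targets of ATF4, were lower in 17 of 20 cases and higher in 3, with a median log2 fold change of -0.15, where 6503 of all 12627 tested genes were lower. Aars, which charges the alanine tRNA, was at 8.14, 7.95 and 8.04 FPKM in sham and at 6.44, 6.87 and 7.23 FPKM in VO. Nars was at 45.1, 40.1 and 39.6 FPKM in sham and at 33.1, 34.4 and 35.4 FPKM in VO. These 2 did not overlap between the groups and had log2 fold changes of -0.23 and -0.28 (limma's adjusted p of 0.414 and 0.409), followed by Farsb at -0.27 and Farsa at -0.28 with an unadjusted p over 0.05. Without VO 1, 17 of 20 were again lower and none had an unadjusted p under 0.05. These counts depend on the scaling. With TPM in place of FPKM, which moved the median of all tested genes by 0.14, 11 of the 20 were lower and 9 higher. With TPM 4146 of all 12627 tested genes were lower. The median of the list was then -0.01 and that of all tested genes 0.13, so the list lay under it on both scales.

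The protein folding lists, which belong to sister branches of the stress response, gave no common direction in the endoplasmic reticulum: 11 of 21 genes were lower and 10 higher. Sel1l and Edem1, which work in the disposal of misfolded proteins, were higher at log2 fold changes of 0.26 and 0.40 and had an unadjusted p of 0.0362 and 0.0384, though Edem1 overlapped between the groups. Xbp1, a factor of the IRE1 branch, was lower at -0.24 with an unadjusted p of 0.0429, and Selenos was at -0.46 with 0.0511. Without VO 1 none of the 21 genes had an unadjusted p under 0.05. In mitochondria 12 of 12 chaperones and proteases were lower in VO, with a median of -0.23 and no gene without overlap between the groups, beside the 6503 of 12627 tested genes that were lower. Htra2 was at -0.33, Clpp at -0.35, Hspe1 at -0.40 and Lonp1 at -0.25, none with an unadjusted p under 0.05. Without VO 1, 8 of 12 were lower at a median of -0.04. With TPM 7 of 12 were lower at a median of -0.09, where 4146 of all 12627 tested genes were lower. Without VO 3, 12 of 12 were lower at a median of -0.34 and 5 had an unadjusted p under 0.05, against 7.56% of all tested genes.

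VO 3 was the library in which the serine and asparagine enzymes and Atf4 lay on opposite sides of the sham range. It was at least 1.5 times the next library for Asns and Phgdh among the 8 tested members, and for Slc1a5, Sfxn1 and Nupr1 among the 122 other genes of the pathway, where 1.6% of all tested genes were. Shmt1 stood as high there, at 1.75 FPKM against 0.778 to 1.02 FPKM elsewhere. It passed the filter only through VO 3 and is left aside. VO 1 stood as high for none of the members and for 3.79% of all tested genes. Slc1a5, the glutamine transporter ASCT2, was at 12.9, 12.1 and 10.9 FPKM in sham and at 9.14, 10.3 and 24.9 FPKM in VO. As with Asns, the other VO libraries lay under every sham library, and without VO 3 its log2 fold change was -0.30 in place of 0.15. Sfxn1 was at 4.99 FPKM in VO 3 and at 2.09 to 2.61 FPKM elsewhere. In the same library Atf4, Ddit3 and Mthfd2 were at 38.5, 11.5 and 2.93 FPKM, all under the sham range. The adipocyte and Schwann cell markers were highest in VO 3, 5 of 5 and 4 of 4, and their part in these levels was not tested. VO 3 was also the VO library with Ddx3y. With the 4 Xist libraries alone, Asns was at a log2 fold change of -0.22, Phgdh at 0.14, Psat1 at 0.12 and Atf4 at -0.38.

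**Figure D4:**
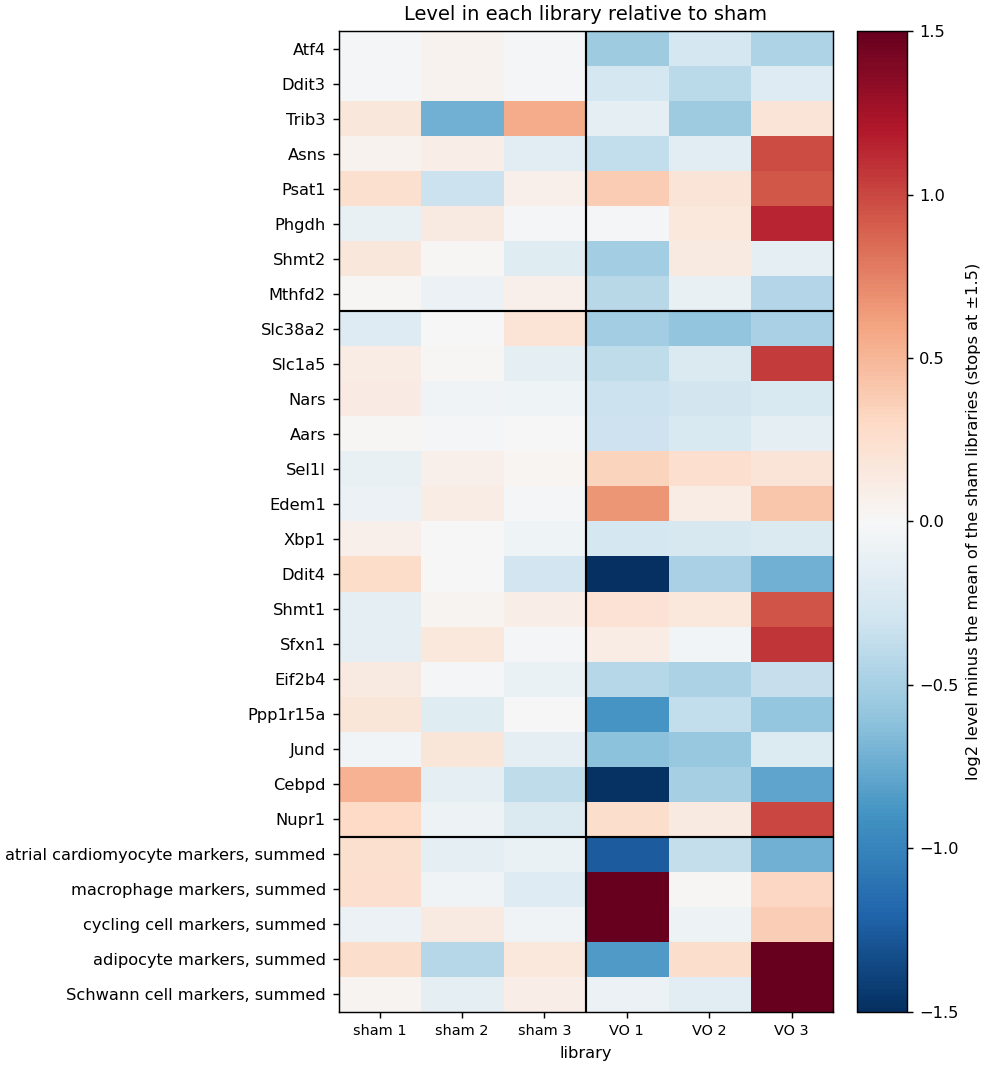
Log2 level in each library minus the mean of the sham libraries, as colours that stop at -1.5 and 1.5, for the 8 tested members (top), for other genes of the pathway with an unadjusted p under 0.05 or with VO 3 at least 1.5 times the next library (middle) and for summed cell type markers (bottom). Asns, Psat1, Phgdh, Slc1a5, Shmt1, Sfxn1 and Nupr1 are reddest in VO 3 beside the adipocyte and Schwann cell markers, and Ddit4 and Cebpd are bluest in VO 1 beside the macrophage and cycling cell markers. Shmt1 passed the filter only through VO 3.

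VO 1, the library with the highest macrophage and cycling cell markers and the lowest summed atrial cardiomyocyte markers, was also the lowest for Atf4, Asns, Shmt2, Ppp1r15a, Cebpd and Ddit4. It was lowest for many other genes of the lists too, among them most tRNA synthetases and mitochondrial chaperones and proteases. The share over all tested genes was not counted. Without VO 1, Atf4 and Ddit3 remained the members with an unadjusted p under 0.05, both lower, where 5.02% of all tested genes were lower at that threshold, and the median of the 8 members was -0.09. Without VO 3 the members past that threshold were again Atf4 and Ddit3, against a share of 7.56% over all tested genes, and the median was -0.26. Without VO 2 they were Atf4 and Mthfd2, where 1223 of the 12627 tested genes were lower at that threshold. Without sham 2 or sham 3 a single member, Atf4, was left, where 795 and 849 of all tested genes were lower. The part of the macrophage and cycling cell markers in these levels was not tested.

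Over the 6 libraries the genes whose log2 levels were most like those of Atf4 were Taf8, a subunit of the general factor TFIID, with Pearson's r = 0.9998, the mitochondrial tyrosine tRNA gene mt-Ty with r = 0.995 and Alyref, an mRNA export factor, with r = 0.989. Of the other 12626 tested genes, 95, or 0.752%, had an r of at least 0.95 with Atf4. These values describe 6 points that share the difference between the groups and the same libraries.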

How the data were processed

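RNA of 6 RA libraries, made with the NEBNext Ultra RNA kit, was sequenced in read pairs. The authors mapped the reads with HISAT2 2.0.5 to GRCm38, counted them with featureCounts 1.5.0-p3 and deposited FPKM per gene, as the methods and the submitters' processing notes say. The strand setting and the annotation release are not given in the sources used here. Gene coordinates were identical to GENCODE M21 for 98.4% of 54059 shared genes. 1 incomplete last line was left out. Multiplied by gene length and divided by a constant of each library, the FPKM came out whole (tolerance 0.01) for 100% of values above 0, which gave the fragments.

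FPKM were scaled by the median of ratios, which changed nothing (factors of 1.00), filtered at a mean of 1 FPKM over the 6 libraries, and fitted as log2(FPKM + 0.1) with limma 3.58.1 in R 4.3.3 (lmFit, eBayes with trend), VO against sham without covariates, with Benjamini-Hochberg adjustment over all 12627 genes. The deposited values are FPKM, and the DESeq2 count test of the study was not run, though fragments could be recovered. Voom on the recovered fragments was an alternative. The study reported far more genes at an adjusted p under 0.05 than the 1 gene found here by limma, and the reason was not tested. An exact permutation test of 3 against 3 libraries cannot give a p under 0.1 and was not used. Limits are at 95%. The fit was tested on simulated data.

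The members and lists were chosen with earlier results of these data known. The rule for naming genes took the 10 members, the 4 genes of each list with the smallest p, and the 3 genes most like the member with the smallest p. Slc1a5, Nupr1, Klb, Ret, Gfral, the kinases Eif2ak1 to Eif2ak4, the markers and the genes with promoter matches were named after their values were seen. Same-numbered sham and VO libraries were not taken as pairs, since their deviations correlated at -0.108, 0.0112 and -0.0292. Alternatives were other pseudocounts (1, 0.01) and filters (0.1, 5, none), FPKM as deposited, TPM, quantile normalization, no variance trend, voom on the recovered fragments, the replicate block, each library left out, and 2 for sex. Figures were drawn with matplotlib 3.10.9.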

Additional observations from a re-analysis of the deposited data

How the results depend on the processing

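Over 19 alternatives Atf4 and Ddit3 stayed lower in VO in each, and Mthfd2 in all 18 that tested it, with log2 fold changes of -0.50 to -0.27, -0.33 to -0.15 and -0.43 to -0.19. No member reached an adjusted p of 0.05 in any, and the adjusted p of Atf4 ran from 0.242 to 0.686. Trib3 turned to 0.12 without sham 3 and 0.03 without VO 2 (-0.52 to 0.12 with a library left out), and Asns to -0.26 without VO 3 (-0.26 to 0.41 with a library left out) and -0.22 with the Xist libraries alone, an alternative chosen, like the sex covariate, after seeing the data. The other log2 fold changes ran from 0.12 to 0.65 for Psat1, 0.071 to 0.65 for Phgdh and -0.33 to -0.0041 for Shmt2. The gene past an adjusted p of 0.05 became 3 with a filter of 0.1 FPKM or without the variance trend, 2 with a pseudocount of 1, and 0 with quantile normalization, the sex covariate, the Xist libraries or any library left out. The 1511 genes at an unadjusted p under 0.05 became 900 with the Xist libraries and 873 to 1997 with a library left out. The 3 members at that threshold became 1 with TPM (Psat1, higher, at a log2 fold change of 0.65), 1 with the Xist libraries (Trib3, lower, at -0.70) and 1 to 2 with a library left out, with 1 without sham 2 or sham 3. They became 2 with either pseudocount, any other filter, quantile normalization, voom or the sex covariate, and Mthfd2 passed in 4 of 18, Ddit3 in 13 of 19 and Atf4 in 16 of 19. The 3 members without overlap became 1 with TPM (Psat1), 6 with the Xist libraries and 3 to 4 with a library left out. Smaller groups separate more easily. Over all tested genes, 1633 were lower and 1042 higher without overlap. Without VO 3 these were 2514 and 1869, without VO 1 they were 1941 and 1428, and with TPM 716 and 2094. No such share is given for the Xist libraries, where the groups are smallest, so the 6 are not read as a result about the members.

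With the replicate number as a block, 0 genes had an adjusted p under 0.05, 932 genes had an unadjusted p under 0.05 in place of 1511, and 1 member did, Atf4. The numbers name the libraries and do not pair them. Depth limits Gdf15 and Fgf21 most, at no more than 31 and 0 fragments per library.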
